A study of Mus musculus with 9 samples.

Results

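The transcripts described here are 38 genes that mark spleen cells other than T cells, 15 of them typical of B cells and 23 of myeloid cells, measured in sorted mouse spleen regulatory T cells (Tregs). They were chosen by gene symbol, as a check of purity, and each of the 38 symbols was found once among the 23420 rows of the count tables. All 38 passed the filter on low counts over the 9 samples together, some of them only through the samples where they were high. The 9 samples form 3 groups of 3: ST2KO, ST2-high and ST2-low, of which ST2-high and ST2-low are wild-type cells sorted into a fraction with much and a fraction with little ST2. ST2 is the interleukin-33 receptor, encoded by Il1rl1, and the series title places the work in ischemic kidney injury. Every sample is labelled spleen and Tregs. The knockout allele, the strain, the age of the mice, the sorting gates and whether animals were pooled are not stated in the labels. Nor do the labels call the samples of a group separate animals, so every p measures only how these samples vary, and that variation may be technical.

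B cells recognise antigen through a membrane immunoglobulin whose signalling chains are encoded by Cd79a and Cd79b, and their identity depends on the transcription factors Pax5 and Ebf1. Macrophages, monocytes, dendritic cells and granulocytes depend on the transcription factor PU.1, which the tables list under its older symbol Sfpi1, and macrophages and monocytes also on the growth factor receptor Csf1r. Spleen macrophages clear dying cells and red cells, and they are a major source of the complement components C1qa, C1qb and C1qc. In a bulk library, fewer cells of a type and less RNA of that type per cell cannot be told apart. Of the 38 genes, 26 were treated as restricted to B or myeloid cells. The other 12 (Blk, Faim3, Ly86, Vcam1, Itgax, Fcgr3, Fcer1g, Tyrobp, Cd68, Flt3, Lyn and Syk) were treated as known from further cells too. These are T cells or other lymphocytes and, for Vcam1, stroma.

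Levels are CPM, read counts scaled to a common library size with TMM factors. Total counts ran from 11659659 to 43406680 in ST2KO, from 16223242 to 29320699 in ST2-high and from 19084575 to 20098456 in ST2-low. At these depths 3 counts correspond to between 0.0651 and 0.245 CPM. Of 14 T cell and Treg identity genes, 6 rose and 5 fell in ST2KO relative to ST2-low, where 33% of all tested genes rose and 29.3% fell. Ctla4 changed furthest, at 2.54-fold lower, and Cd3e, Cd4 and Foxp3 did not pass. Cd3e was at 352.4 ± 12.3, 350.7 ± 16.9 and 348.0 ± 7.55 CPM in ST2KO, ST2-high and ST2-low (mean ± SD, n = 3 each). The Treg transcription factor gene Foxp3 was at 430.2 ± 17.6 CPM in ST2KO, 567.7 ± 47.8 CPM in ST2-high and 461.6 ± 16.3 CPM in ST2-low (SD, n = 3 each). Il1rl1 was at 57.7, 61.4 and 83.6 CPM in the libraries labelled ST2KO, at 516, 421 and 547 CPM in ST2-high and at 2.16, 3.59 and 2.11 CPM in ST2-low. A count summed over a gene cannot tell its exons apart, so Il1rl1 is no test of the knockout. ST2-high replicate 3 stood apart from its group, with a chi-square per gene of 16.5 and 19.9 against the other libraries of the group, where all other pairs within a group had at most 8.22. The ribosomal RNA precursor Rn45s was kept in this measure and weighs on it. It held 16.7% of counts in ST2-high replicate 3, against 13% and 12.1% in replicates 1 and 2. Where a count of members called moved by over 1.5 times without ST2-high replicate 3, that count is given.

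Promoter sequences from RefSeq (GRCm38.p6) were available for 27 of the 38 genes, each spanning 250 bases before to 50 after the start. Only 4 are shown, because they stand for the main patterns below: Clec7a and C1qb, myeloid genes that were far lower in ST2KO, and Cd79a and Cd22, B cell genes that differed little or did not pass the test. Capitals mark the letters AGGAAGT and GAGGAA, short forms of the PU.1 binding motif that can overlap each other, and CCCNNGGG, a short form of the Ebf1 motif, each searched on both strands. Clec7a lies at chr6:129472730-129473029 on the minus strand, C1qb at chr4:136886151-136886450 on the minus strand, Cd79a at chr7:24897247-24897546 on the plus strand and Cd22 at chr7:30878979-30879278 on the minus strand.
Clec7a: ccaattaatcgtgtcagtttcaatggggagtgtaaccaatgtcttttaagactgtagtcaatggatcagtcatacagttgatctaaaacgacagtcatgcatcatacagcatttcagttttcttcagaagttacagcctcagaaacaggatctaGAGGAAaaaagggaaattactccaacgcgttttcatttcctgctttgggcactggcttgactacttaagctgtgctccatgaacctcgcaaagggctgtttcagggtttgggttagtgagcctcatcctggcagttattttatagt
C1qb: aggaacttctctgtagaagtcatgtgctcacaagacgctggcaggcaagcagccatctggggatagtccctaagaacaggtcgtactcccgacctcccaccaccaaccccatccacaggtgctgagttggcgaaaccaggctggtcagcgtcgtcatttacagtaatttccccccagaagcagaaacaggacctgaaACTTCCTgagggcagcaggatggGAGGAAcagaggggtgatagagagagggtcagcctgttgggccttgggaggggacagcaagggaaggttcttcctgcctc
Cd79a: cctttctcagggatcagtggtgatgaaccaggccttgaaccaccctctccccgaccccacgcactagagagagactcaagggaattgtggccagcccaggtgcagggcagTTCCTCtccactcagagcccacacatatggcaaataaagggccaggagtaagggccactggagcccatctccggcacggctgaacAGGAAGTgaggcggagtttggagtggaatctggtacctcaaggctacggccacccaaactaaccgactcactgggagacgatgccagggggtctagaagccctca
Cd22: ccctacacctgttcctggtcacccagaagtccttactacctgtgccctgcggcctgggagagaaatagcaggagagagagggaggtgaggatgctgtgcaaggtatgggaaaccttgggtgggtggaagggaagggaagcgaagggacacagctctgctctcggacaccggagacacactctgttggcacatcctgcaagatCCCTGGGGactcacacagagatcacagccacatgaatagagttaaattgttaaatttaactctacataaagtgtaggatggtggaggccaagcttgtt

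GAGGAA was present in 8 of 15 myeloid promoters and 4 of 12 B cell promoters, against 28.3% of all 32851 promoters in the table. AGGAAGT was present in 4 of the 15 and 3 of the 12, against 9.35%. CCCNNGGG was present in 3 of the 15 and 2 of the 12, against 13.7%. A match of letters is a description of the window and not a binding site. Clec7a held GAGGAA, C1qb and Cd79a held both PU.1 forms, and Cd22 held CCCNNGGG.

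The myeloid transcripts were much lower in ST2KO Tregs than in both wild-type groups. The summed B cell transcripts overlapped between the groups, although 6 of the 15 genes passed as lower in ST2KO than in ST2-low. Summed over the 23 myeloid genes, the level was 111.2, 88.96 and 108.0 CPM in ST2KO, 271.7, 263.7 and 270.2 CPM in ST2-high and 286.4, 269.1 and 332.1 CPM in ST2-low. Every ST2KO library lay below every wild-type library. The summed level of ST2KO was 2.88-fold below ST2-low and 2.63-fold below ST2-high. Over the 15 B cell genes the sums were 166.9, 136.9 and 177.9 CPM in ST2KO, 200.9, 191.5 and 160.3 CPM in ST2-high and 218.5, 146.0 and 194.6 CPM in ST2-low, and all 3 groups overlapped. No library had 0 counts of any of the 38 genes.

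**Figure D1:**
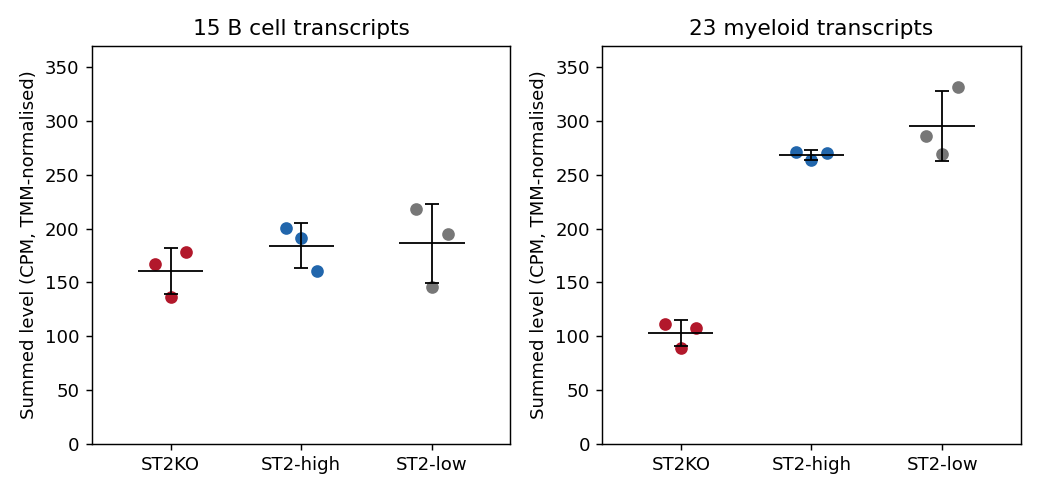
Summed level in CPM of the 15 B cell transcripts (left) and the 23 myeloid transcripts (right) in each library, with 1 point per library, a line at the group mean and a bar of 1 SD (n = 3). The ST2KO libraries sit between 88.96 and 111.2 CPM in the myeloid panel, below all wild-type libraries, and overlap them in the B cell panel.

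The balance of the sums does not depend on how libraries are scaled. The myeloid sum divided by the B cell sum was 0.666, 0.65 and 0.607 in the ST2KO libraries, 1.35, 1.38 and 1.69 in ST2-high and 1.31, 1.84 and 1.71 in ST2-low. With the 26 restricted genes alone the ratio was 0.275, 0.236 and 0.236 in ST2KO, 0.678, 0.743 and 0.882 in ST2-high and 0.766, 1.14 and 1.03 in ST2-low. ST2KO was the lowest group on both counts. Among the restricted genes the myeloid sum was 39.69, 28.88 and 37.15 CPM in ST2KO, 113.4, 119.3 and 119.0 CPM in ST2-high and 136.9, 138.2 and 164.0 CPM in ST2-low, a 4.18-fold difference between ST2KO and ST2-low. No p is given for these sums, because the genes were chosen with earlier results of these data known.

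By edgeR's quasi-likelihood test, adjusted over all 12219 genes tested, 21 of the 23 myeloid genes fell in ST2KO relative to ST2-low and 0 rose, where 29.3% of all genes were lower and 33% higher. At an unadjusted p below 0.05, and by DESeq2 and limma-voom, the counts were likewise 21 and 0. Of the 21, 19 were lower by 2-fold or more, a size of fall that 6.64% of all genes reached. The median log2 fold change of the 23 was -2.08, against 0.05 over all genes. The genes that did not pass were Cd68 and Csf3r. The 21 include Clec7a and Siglech, which lay below the filter's cut-off in every ST2KO library and were tested only through their wild-type levels. Cd14, C1qc and S100a9 also needed wild-type libraries to pass the filter. Against ST2-high, a comparison that uses the same ST2KO libraries, 21 of 23 were again lower and 0 higher, with a median of -1.61 against 0.02, where 32.6% of all genes were lower and 31.9% higher. Of the 23, 14 were lower than in ST2-high by 2-fold or more, where 8.86% of all genes were. All ST2KO libraries lay below all ST2-low libraries in 21 of the 23, where 31.2% of all genes were separated that way, and below all ST2-high libraries in 21, where 33.3% were. Of the 14 restricted myeloid genes, 13 were lower than in ST2-low, with a median of -2.42, and of the 9 others 8 were lower.

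**Figure D2:**
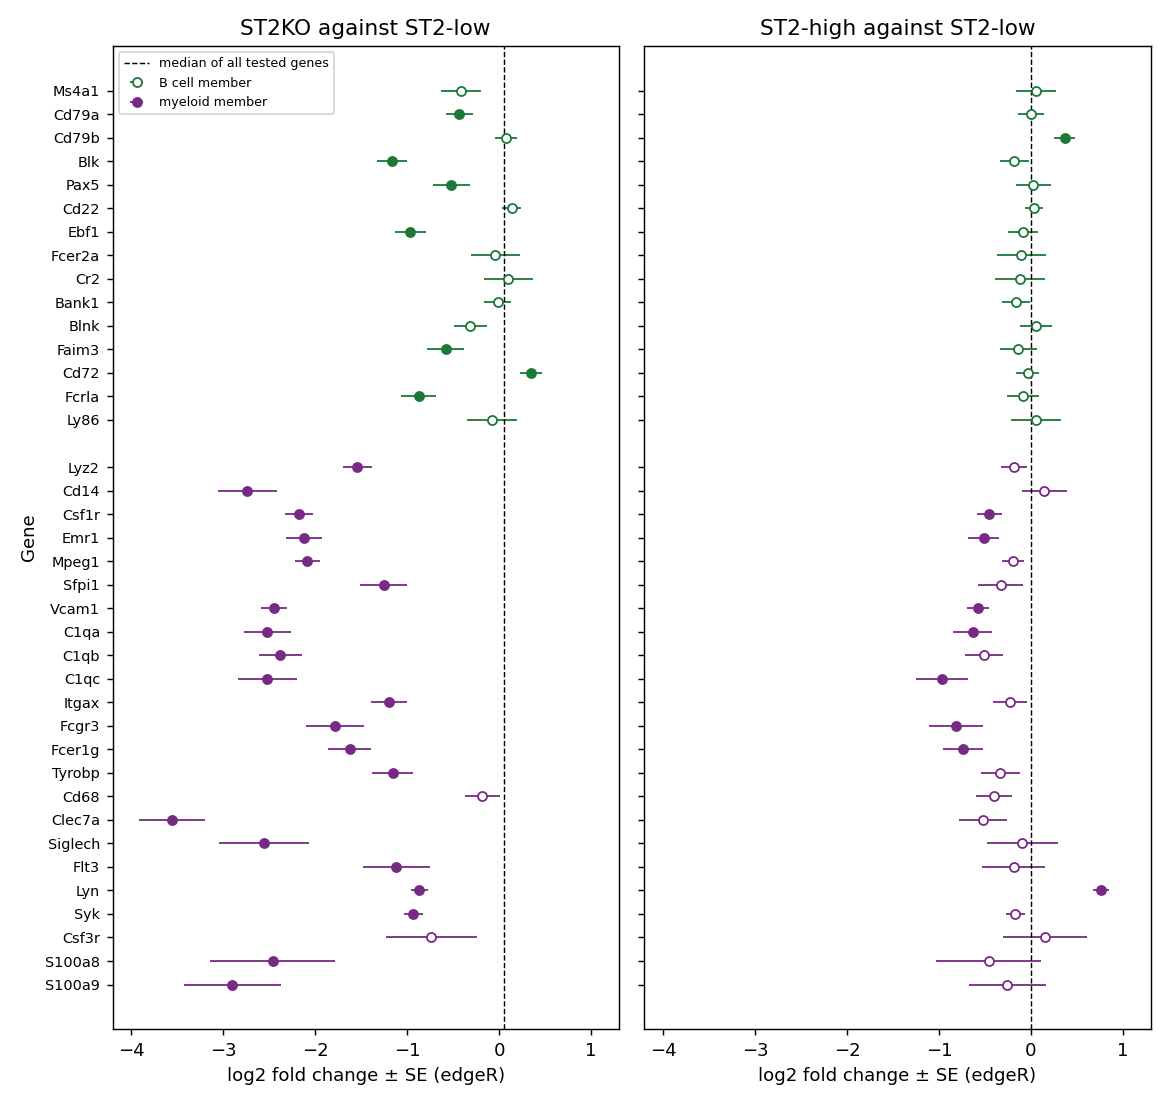
Log2 fold change ± SE of each of the 38 genes in ST2KO against ST2-low (left) and in ST2-high against ST2-low (right), B cell genes in green and myeloid genes in purple. Filled points passed the edgeR test (adjusted p below 0.05), open points did not, and the dashed line is the median of all tested genes. In ST2KO against ST2-low the B cell genes lie between -1.16 and 0.35 and the myeloid genes between -3.55 and -0.18, with Cd68, Csf3r, Lyn, Syk, Flt3 and Tyrobp inside the B cell range.

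Vcam1, Csf1r and Emr1, genes of macrophages, each fell in ST2KO. Vcam1, an adhesion molecule of splenic macrophages and stroma, was at 7.32, 4.15 and 5.81 CPM in ST2KO, 21.9, 22.2 and 22.4 CPM in ST2-high and 30.4, 29.7 and 38.9 CPM in ST2-low. The 3 groups did not overlap, and ST2KO was 5.44-fold below ST2-low (log2 fold change -2.44 ± 0.14, SE; edgeR adjusted p = 1.48e-12). Csf1r, the receptor that keeps macrophages and monocytes alive, was at 7.08, 5.03 and 5.4 CPM in ST2KO, 18.4, 22.7 and 19.4 CPM in ST2-high and 24.2, 23.8 and 34.4 CPM in ST2-low. Its groups were likewise separate, with ST2KO 4.51-fold below ST2-low (edgeR adjusted p = 1.95e-10). Emr1, an adhesion receptor used to identify mouse macrophages, was at 2.45, 1.52 and 1.88 CPM in ST2KO, 5.23, 7.3 and 6.59 CPM in ST2-high and 9.24, 8.05 and 9.7 CPM in ST2-low. Again no ST2KO library reached a wild-type one (4.36-fold below ST2-low; edgeR adjusted p = 8.04e-11).

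The complement genes C1qa, C1qb and C1qc, whose products form the recognition molecule of the classical pathway, fell by nearly the same factor. C1qa was at 0.89, 1.29 and 1.47 CPM in ST2KO, 4.6, 3.71 and 4.09 CPM in ST2-high and 5.4, 5.13 and 8.79 CPM in ST2-low. C1qb was at 1.19, 0.994 and 1.64 CPM in ST2KO, 4.12, 3.94 and 5.6 CPM in ST2-high and 5.57, 5.79 and 7.89 CPM in ST2-low. C1qc was at 1.52, 0.292 and 1.8 CPM in ST2KO, 3.21, 4.58 and 3.23 CPM in ST2-high and 5.78, 6.79 and 8.79 CPM in ST2-low. ST2KO lay below both wild-type groups in all 3 genes, 5.73-fold, 5.19-fold and 5.73-fold below ST2-low, and the lowest value, C1qc in ST2KO replicate 2, rested on 5 counts. The edgeR adjusted p was 7.1e-10 for C1qa, 5.16e-10 for C1qb and 1.3e-06 for C1qc.

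Among phagocyte effector genes Mpeg1 and Lyz2 fell and Cd68 did not pass. Mpeg1, a pore-forming protein of phagocytes, was at 9.66, 6.02 and 6.96 CPM in ST2KO, 27.9, 33.0 and 28.0 CPM in ST2-high and 32.6, 30.5 and 38.2 CPM in ST2-low. Lyz2, the lysozyme of macrophages and granulocytes, was at 12.3, 8.65 and 13.8 CPM in ST2KO, 33.1, 25.97 and 29.3 CPM in ST2-high and 33.5, 27.9 and 39.3 CPM in ST2-low. For both genes ST2KO was separate and the wild-type groups overlapped, and ST2KO was 4.24-fold and 2.91-fold below ST2-low (edgeR adjusted p = 1.78e-11 and 7.35e-07). Cd68, a lysosomal membrane protein abundant in macrophages, was the exception, at 7.86, 4.85 and 4.83 CPM in ST2KO, 4.95, 5.86 and 5.08 CPM in ST2-high and 5.78, 6.18 and 8.84 CPM in ST2-low. All groups overlapped and the test did not pass (log2 fold change -0.18, 95% interval -0.57 to 0.21; edgeR adjusted p = 0.415). Without ST2KO replicate 1 Cd68 passed as lower (edgeR adjusted p = 0.0365, with 0.0365 to 0.903 over its alternatives).

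Receptors that sense microbes or mark dendritic cells fell to unequal extents. Clec7a, the beta-glucan receptor dectin, was at 0.174, 0.468 and 0.491 CPM in ST2KO, 2.93, 2.67 and 1.98 CPM in ST2-high and 3.4, 3.92 and 3.72 CPM in ST2-low. It rested on 8, 8 and 6 counts in ST2KO, which was 11.7-fold below ST2-low (log2 fold change -3.55 ± 0.36, SE; edgeR adjusted p = 5.91e-10), the largest fall among the 38. Clec7a passed the filter only through wild-type libraries, so its test leaned towards a fall from the start. Cd14, the lipopolysaccharide co-receptor, was at 0.673, 0.468 and 0.327 CPM in ST2KO, 3.0, 4.41 and 5.14 CPM in ST2-high and 2.76, 4.69 and 3.67 CPM in ST2-low. Its wild-type groups overlapped and ST2KO was 6.66-fold below ST2-low (edgeR adjusted p = 9.96e-09). Siglech, a marker of plasmacytoid dendritic cells, was at 0.217, 0.117 and 0.164 CPM in ST2KO, against 0.942, 0.986 and 1.19 CPM in ST2-high and 1.3, 0.883 and 1.11 CPM in ST2-low. The ST2KO values rested on 10, 2 and 2 counts, all below the wild-type libraries, and the fall passed the test (edgeR adjusted p = 4.39e-05 against ST2-low). Siglech, too, passed the filter only through wild-type libraries. Itgax, the integrin chain used to identify dendritic cells, was at 2.3, 2.34 and 2.29 CPM in ST2KO, 5.09, 3.77 and 4.62 CPM in ST2-high and 5.3, 5.3 and 5.33 CPM in ST2-low. Flt3, the growth factor receptor of dendritic cell precursors, was at 0.825, 0.935 and 0.573 CPM in ST2KO, 1.36, 1.74 and 1.52 CPM in ST2-high and 1.14, 1.43 and 2.61 CPM in ST2-low. Both were lower in ST2KO, without overlap, by 2.29-fold and 2.17-fold (edgeR adjusted p = 5.54e-06 and 0.00892 against ST2-low), and the Flt3 call was lost without ST2-low replicate 3 (edgeR adjusted p = 0.151, with 0.00438 to 0.151 over its alternatives).

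**Figure D3:**
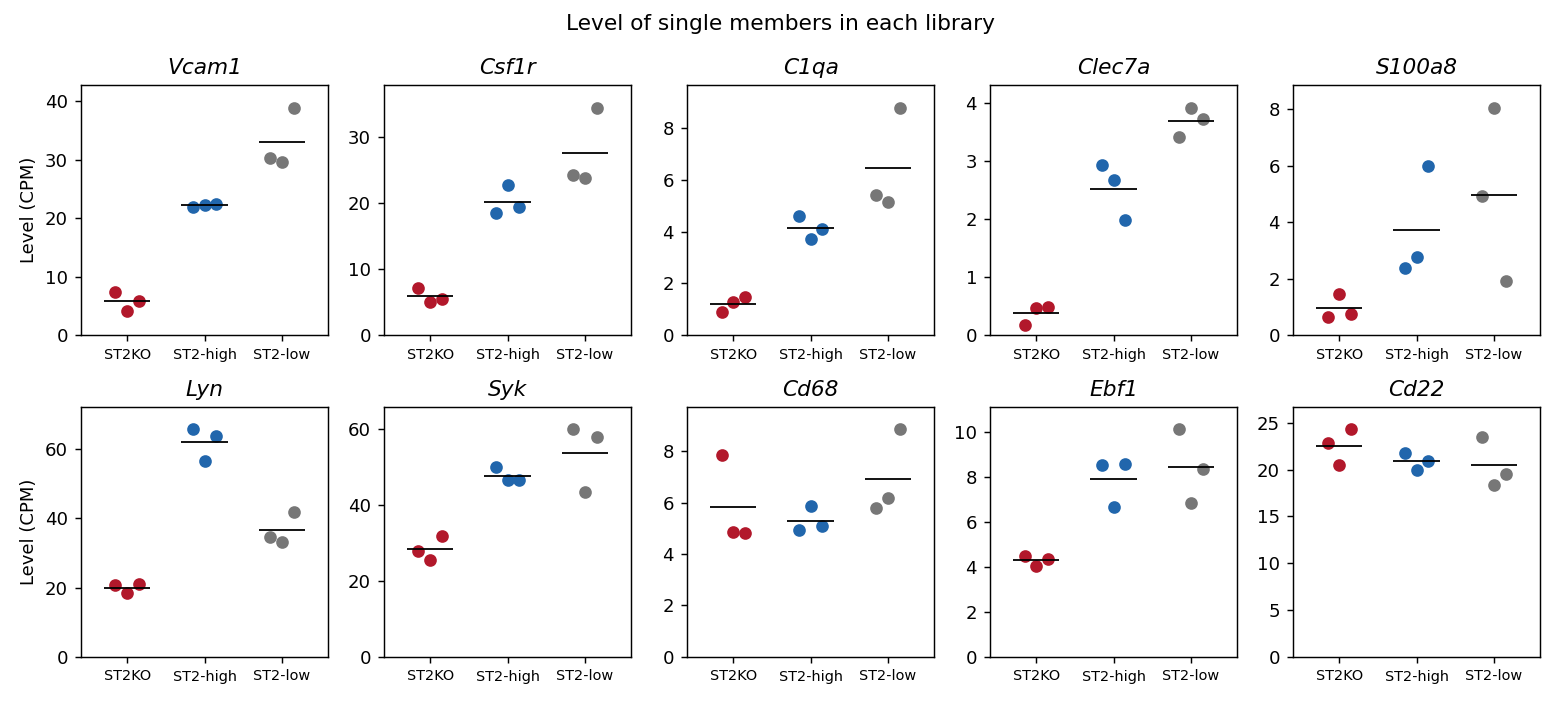
Level in CPM of 10 members in each library, with 1 point per library and a line at the group mean (n = 3), each panel on its own axis from 0. ST2KO is separate from both wild-type groups for Vcam1, Csf1r, C1qa, Clec7a, S100a8, Lyn, Syk and Ebf1, and overlaps them for Cd68 and Cd22.

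Sfpi1, the gene of PU.1, was at 1.93, 0.935 and 1.31 CPM in ST2KO, 2.96, 2.96 and 2.57 CPM in ST2-high and 3.94, 3.59 and 3.22 CPM in ST2-low. The groups did not overlap and ST2KO was 2.38-fold below ST2-low (edgeR adjusted p = 9.57e-05). The Fc receptor Fcgr3 and the adaptor chains Fcer1g and Tyrobp, which pass signals from Fc and other activating receptors in myeloid and NK cells, were lower in ST2KO too. Fcgr3 was at 0.847, 0.76 and 0.9 CPM in ST2KO, 2.02, 1.62 and 1.12 CPM in ST2-high and 2.27, 3.37 and 3.02 CPM in ST2-low. Fcer1g was at 1.76, 1.11 and 1.88 CPM in ST2KO, 2.93, 3.19 and 2.77 CPM in ST2-high and 5.57, 4.85 and 4.42 CPM in ST2-low. Tyrobp was at 2.02, 2.1 and 1.72 CPM in ST2KO, 4.04, 2.96 and 3.36 CPM in ST2-high and 4.49, 3.64 and 5.08 CPM in ST2-low. ST2KO was the lowest group without overlap for all 3, by 3.44-fold, 3.08-fold and 2.23-fold against ST2-low (edgeR adjusted p = 1.54e-05, 4.14e-07 and 4.52e-05). How reads of related Fc receptor genes or of Lyz2 and its neighbour Lyz1 were shared out is unknown here, so Fcgr3 and Lyz2 are uncertain.

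S100a8 and S100a9 encode the subunits of calprotectin, an abundant cytosolic protein of neutrophils and monocytes. S100a8 was at 0.651, 1.46 and 0.737 CPM in ST2KO, 2.37, 2.78 and 6.0 CPM in ST2-high and 4.92, 8.05 and 1.91 CPM in ST2-low. S100a9 was at 0.543, 1.11 and 0.0818 CPM in ST2KO, 3.49, 2.73 and 5.27 CPM in ST2-high and 3.67, 7.23 and 2.71 CPM in ST2-low. ST2KO was below every wild-type library in both, S100a9 having 1 count in ST2KO replicate 3, and ST2-low replicate 2 was the highest library in both. The falls against ST2-low passed (edgeR adjusted p = 0.0148 for S100a8 and 0.000467 for S100a9), and the S100a8 call was lost without ST2KO replicate 1 (edgeR adjusted p = 0.0897, with 3.14e-05 to 0.0897 over its alternatives). Csf3r, the receptor of the granulocyte growth factor, overlapped in all groups, at 0.412, 0.526 and 1.15 CPM in ST2KO, 1.19, 1.51 and 0.659 CPM in ST2-high and 0.594, 1.88 and 0.603 CPM in ST2-low. Its log2 fold change against ST2-low was -0.74 with a 95% interval of -1.75 to 0.28, an interval that also holds the fall of Itgax (edgeR adjusted p = 0.199).

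The kinases Lyn and Syk, which act at antigen and Fc receptors and are also transcribed in some T cells, were lower in ST2KO as well. Lyn was at 20.8, 18.4 and 20.9 CPM in ST2KO, 65.7, 56.5 and 63.7 CPM in ST2-high and 34.7, 33.1 and 41.9 CPM in ST2-low. The 3 groups did not overlap and ST2-high was the highest. Syk was at 27.8, 25.5 and 31.9 CPM in ST2KO, 50.2, 46.6 and 46.7 CPM in ST2-high and 60.0, 43.4 and 58.0 CPM in ST2-low. ST2KO was the lowest group for both kinases, 1.82-fold and 1.91-fold below ST2-low (edgeR adjusted p = 1.14e-09 and 1.76e-07).

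Of the 15 B cell genes, 6 were lower in ST2KO than in ST2-low, 1 was higher and 8 did not pass, where 29.3% of all genes were lower and 33% higher. The median log2 fold change was -0.31, and 1 of the 15 fell by 2-fold or more. The count of genes lower was 3 without ST2-low replicate 1. Against ST2-high 6 were lower, 1 was higher and 8 did not pass, where 32.6% of all genes were lower and 31.9% higher. That count was 3 lower without ST2KO replicate 2 and 8 lower without ST2-high replicate 3. The gene higher was Cd72 in both comparisons, and against ST2-high its call was lost without ST2KO replicate 1 or ST2-high replicate 3.

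Cd79a, a signalling chain of the antigen receptor, was at 12.3, 9.12 and 12.2 CPM in ST2KO, 15.7, 16.4 and 13.6 CPM in ST2-high and 19.4, 12.1 and 14.2 CPM in ST2-low. Cd79b, the other chain, was at 16.8, 17.5 and 19.8 CPM in ST2KO, 23.4, 23.5 and 18.2 CPM in ST2-high and 17.3, 14.0 and 19.4 CPM in ST2-low. ST2KO and ST2-low overlapped in both genes. Cd79a passed as 1.35-fold lower (edgeR adjusted p = 0.0137), a call lost without ST2KO replicate 2 or ST2-low replicate 1 (0.000861 to 0.181 over its alternatives with edgeR, DESeq2 or limma), and Cd79b did not pass (edgeR adjusted p = 0.583). Against ST2-high both chains passed as lower, by 0.43 for Cd79a and 0.29 for Cd79b on the log2 scale (edgeR adjusted p = 0.0125 and 0.0277). The Cd79a call was lost without ST2KO replicate 2 (0.000869 to 0.0715 over its alternatives with edgeR, DESeq2 or limma), and the Cd79b call with upper-quartile scaling or without ST2KO replicate 1 or 2 or ST2-high replicate 1 or 2 (0.00139 to 0.138). Ms4a1, a surface protein of mature B cells and the target of rituximab in humans, was at 18.6, 12.2 and 20.8 CPM in ST2KO, 26.1, 26.03 and 18.6 CPM in ST2-high and 26.1, 18.2 and 24.3 CPM in ST2-low, with overlap in every pair of groups. It did not pass (edgeR adjusted p = 0.136 against ST2-low), but passed as lower with no filter, with limma-voom or without ST2-low replicate 2 (0.0109 to 0.307 over its alternatives with edgeR, DESeq2 or limma).

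Both transcription factor genes among the 15, Ebf1 and Pax5, passed as lower in ST2KO. Ebf1 was at 4.49, 4.03 and 4.34 CPM in ST2KO, 8.51, 6.67 and 8.57 CPM in ST2-high and 10.1, 6.84 and 8.34 CPM in ST2-low, so that ST2KO lay below every wild-type library. It was 1.95-fold below ST2-low (log2 fold change -0.96 ± 0.17, SE; edgeR adjusted p = 1.11e-05). Pax5 was at 4.32, 3.51 and 4.83 CPM in ST2KO, 6.94, 6.55 and 4.68 CPM in ST2-high and 6.27, 4.25 and 7.49 CPM in ST2-low, and overlapped. Its 1.43-fold fall (edgeR adjusted p = 0.0267) was lost with upper-quartile scaling or without ST2KO replicate 1 or 2 or ST2-low replicate 1 or 3 (0.00251 to 0.213 over its alternatives with edgeR, DESeq2 or limma). On the list of other B cell genes the factor gene Bcl11a was higher, at 7.32, 5.73 and 8.43 CPM in ST2KO, 3.63, 2.96 and 3.03 CPM in ST2-high and 2.43, 1.88 and 3.72 CPM in ST2-low, with no overlap (2.64-fold above ST2-low; edgeR adjusted p = 1.83e-06). The factor genes Spib, Pou2af1 and Mef2c were lower and Ciita did not pass. These 5 were named after their values were seen.

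Among signalling genes, the kinase gene Blk was at 6.88, 5.9 and 6.79 CPM in ST2KO, 14.6, 12.6 and 11.3 CPM in ST2-high and 16.6, 9.98 and 17.4 CPM in ST2-low. ST2KO was separate and 2.24-fold below ST2-low (edgeR adjusted p = 2.27e-06), the largest fall of the 15. Fcrla, an intracellular Fc receptor-like protein of B cells, was at 3.65, 3.33 and 3.35 CPM in ST2KO, 5.13, 7.54 and 5.54 CPM in ST2-high and 7.46, 5.79 and 5.93 CPM in ST2-low. It too was separate (1.83-fold lower; edgeR adjusted p = 0.000164). The adaptor genes Blnk and Bank1, which link the B cell receptor to downstream enzymes, did not pass. Blnk was at 5.23, 4.15 and 6.63 CPM in ST2KO, 6.7, 7.54 and 6.07 CPM in ST2-high and 7.73, 5.74 and 6.13 CPM in ST2-low. Bank1 was at 18.4, 15.4 and 20.1 CPM in ST2KO, 17.6, 16.4 and 14.1 CPM in ST2-high and 21.2, 12.9 and 20.1 CPM in ST2-low. The interval of the log2 fold change against ST2-low was -0.67 to 0.05 for Blnk and -0.33 to 0.30 for Bank1 (95%, unadjusted).

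Of 4 further surface receptors of mature B cells, 3 did not pass and 1 was higher. Cd22, an inhibitory receptor that binds sialic acid, was at 22.8, 20.5 and 24.3 CPM in ST2KO, 21.8, 20.0 and 20.9 CPM in ST2-high and 23.5, 18.4 and 19.6 CPM in ST2-low. Its log2 fold change against ST2-low was 0.14 with a 95% interval of -0.07 to 0.34 (edgeR adjusted p = 0.234), and the groups overlapped. The complement receptor Cr2, at 14.1, 11.2 and 17.9 CPM in ST2KO, 14.1, 12.3 and 9.82 CPM in ST2-high and 16.3, 8.22 and 15.2 CPM in ST2-low, and the IgE receptor Fcer2a, at 4.88, 3.86 and 6.38 CPM in ST2KO, 6.42, 3.71 and 3.69 CPM in ST2-high and 6.81, 3.2 and 5.28 CPM in ST2-low, also overlapped. Their wider intervals, -0.52 to 0.72 and -0.59 to 0.51, left room for a difference of up to about that size. Cd72, an inhibitory co-receptor, was the gene that passed as higher, at 18.6, 17.4 and 16.6 CPM in ST2KO, 15.1, 14.0 and 11.1 CPM in ST2-high and 16.7, 11.9 and 13.1 CPM in ST2-low. ST2KO lay above every ST2-high library and overlapped ST2-low at 1.27-fold (edgeR adjusted p = 0.0156), and this call was lost without ST2KO replicate 1 or ST2-low replicate 2 or 3 (0.00182 to 0.164 over its alternatives with edgeR, DESeq2 or limma).

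Faim3, the IgM Fc receptor, which T cells also carry, was at 12.5, 7.07 and 11.5 CPM in ST2KO, 15.6, 15.1 and 12.1 CPM in ST2-high and 19.9, 12.8 and 14.7 CPM in ST2-low. It was 1.49-fold below ST2-low with no overlap (edgeR adjusted p = 0.0246), a call lost in a fit of only those 6 samples and without ST2-high replicate 2 or ST2-low replicate 1 (1.03e-05 to 0.0737 over its alternatives with edgeR, DESeq2 or limma). Ly86, the partner of a Toll-like receptor homologue in B cells and macrophages, was at 3.39, 1.7 and 2.46 CPM in ST2KO, 3.31, 3.25 and 1.98 CPM in ST2-high and 3.24, 1.76 and 3.32 CPM in ST2-low, and did not pass (edgeR adjusted p = 0.819).

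Within a group, most B cell genes were lowest in the same library. ST2-low replicate 2 had the lowest level of its group in 15 of the 15 B cell genes, ST2KO replicate 2 in 13 and ST2-high replicate 3 in 12. How often these libraries were lowest over all genes was not counted, so a shift of whole libraries cannot be told apart from this. In the myeloid genes the lowest library was less uniform, with ST2KO replicate 2 lowest in 13 of 23, ST2-high replicate 1 in 10 and ST2-low replicate 2 in 10. The summed level of S100a8, S100a9 and Csf3r was 1.61, 3.10 and 1.96 CPM in ST2KO, 7.04, 7.01 and 11.9 CPM in ST2-high and 9.19, 17.2 and 5.23 CPM in ST2-low, so that the ST2-low library with the least B cell RNA had the most RNA of these 3 genes.

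ST2-high Tregs differed from ST2-low Tregs in 8 myeloid genes and 1 B cell gene. Of the 23 myeloid genes, 7 were lower, 1 was higher and 15 did not pass, where 10.8% of all genes were lower and 15.3% higher. The count of genes lower was 4 without ST2-high replicate 1, 5 without ST2-high replicate 3 and 2 without ST2-low replicate 3, the library with the highest myeloid sum. The median log2 fold change was -0.33, against -0.00236 over all genes, and 0 of the falls reached 2-fold, where 0.368% of all genes fell that far.

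The 7 genes were Csf1r, Emr1, Vcam1, C1qa, C1qc, Fcgr3 and Fcer1g, and for each of them all ST2-high libraries lay below all ST2-low libraries. The log2 fold change was -0.57 ± 0.12 (SE) for Vcam1, with edgeR adjusted p = 0.0013, and -0.74 ± 0.21 for Fcer1g, with edgeR adjusted p = 0.0104. C1qc had the largest fall, 1.95-fold, and its edgeR adjusted p was 0.0155. It was lost with DESeq2's test, without ST2-high replicate 1 or 3 and without ST2-low replicate 3 (3.94e-05 to 0.139 over its alternatives with edgeR, DESeq2 or limma). The Csf1r call was lost without ST2-high replicate 1 or 3 or ST2-low replicate 3 (0.000127 to 0.159 over its alternatives with edgeR, DESeq2 or limma), and the Emr1 call without ST2-high replicate 1 or ST2-low replicate 1 or 3 (0.00918 to 0.179). The C1qa call was lost without ST2-high replicate 2 or ST2-low replicate 3 (0.0134 to 0.334), the Fcgr3 call without replicate 2 or 3 of either group (0.0253 to 0.146) and the Fcer1g call without ST2-low replicate 1 (0.00672 to 0.0628). C1qb, with overlapping groups, missed the threshold (edgeR adjusted p = 0.0623) and passed as lower under 6 alternatives (0.0204 to 0.339). Clec7a, Sfpi1 and Itgax were also lower in every ST2-high library than in every ST2-low library but did not pass (edgeR adjusted p = 0.151, 0.348 and 0.407). That made 10 of 23 genes separated in this direction, where 17.6% of all genes were. Of the 27 other macrophage and monocyte genes tested, 7 were lower and 4 higher in ST2-high.

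Lyn was the gene that rose, 1.70-fold (log2 fold change 0.76 ± 0.08, SE; edgeR adjusted p = 1.59e-08), and kept that call under all 18 alternatives. Among the B cell genes Cd79b was 1.29-fold higher (edgeR adjusted p = 0.0177), with overlapping groups, and 0 were lower. The count lower was also 0 at an unadjusted p below 0.05, with DESeq2 and with limma-voom, and it was 2, Blk and Bank1, without ST2-low replicate 2. The Cd79b call was lost without ST2-high replicate 1 or 2 or ST2-low replicate 2 (0.00151 to 0.152 over its alternatives with edgeR, DESeq2 or limma).

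To set genes side by side, levels were divided by length, here the union of exons in the GENCODE annotation of GRCm38. A union holds the exons of all annotated transcripts of a gene, and the annotation used for counting is not stated. Comparisons between genes on this scale are therefore approximate. Cd3e was at 86.4 ± 3.01, 85.9 ± 4.13 and 85.3 ± 1.85 CPM per kilobase in ST2KO, ST2-high and ST2-low (SD, n = 3 each). The highest myeloid gene on this scale in ST2-low was Lyz2, at 8.79 ± 1.99 CPM per kilobase in ST2KO, 22.4 ± 2.72 in ST2-high and 25.5 ± 4.33 in ST2-low. That was 10.2% of the Cd3e level in ST2KO, 26% in ST2-high and 29.9% in ST2-low. Cd79b, the highest B cell gene, was at 12.6 ± 1.09 CPM per kilobase in ST2KO, 15.2 ± 2.12 in ST2-high and 11.8 ± 1.92 in ST2-low, which is 14.6% of Cd3e in ST2KO, 17.6% in ST2-high and 13.8% in ST2-low. Vcam1 and Csf1r stood at 0.752% and 1.17% of Cd3e per kilobase in ST2KO, at 2.91% and 4.06% in ST2-high and at 4.36% and 5.57% in ST2-low. These shares compare transcripts and are not shares of cells.

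Other markers of the same cell types were counted the same way, against 29.3% of all genes lower and 33% higher in ST2KO than in ST2-low. Of 27 tested genes on the list of other macrophage and monocyte genes, 20 were lower in ST2KO than in ST2-low and 0 higher by edgeR, DESeq2 and limma-voom and at an unadjusted p below 0.05, with a median log2 fold change of -1.94. Mrc1, the mannose receptor, was at 2.93, 1.46 and 1.72 CPM in ST2KO, 9.28, 9.28 and 11.1 CPM in ST2-high and 14.4, 13.1 and 17.2 CPM in ST2-low. Its groups were separate, as were those of Slc40a1, the iron exporter ferroportin, and Sirpa, an inhibitory receptor of phagocytes, which were lower by 1.94 and 2.29 on the log2 scale. Of 22 tested other B cell genes, 11 were lower and 3 higher, with a median of -0.44. Cd24a, a glycoprotein of B cell precursors and other cells, was at 13.5, 13.3 and 13.3 CPM in ST2KO, against 31.4, 30.7 and 29.1 CPM in ST2-high and 37.0, 31.4 and 33.9 CPM in ST2-low, and 8 of the list did not pass. The summed level of the other B cell list was 531.1, 528.1 and 566.3 CPM in ST2KO, below 692.0, 644.6 and 646.2 CPM in ST2-high and 718.6, 611.9 and 667.9 CPM in ST2-low, with no overlap of ST2KO and either wild-type group. Genes of high level weigh most in this sum. Swap70 alone averaged 80.61 CPM in ST2KO, 137.9 CPM in ST2-high and 145.3 CPM in ST2-low. Whether the sum follows the amount of B cell RNA was not tested.

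**Figure D4:**
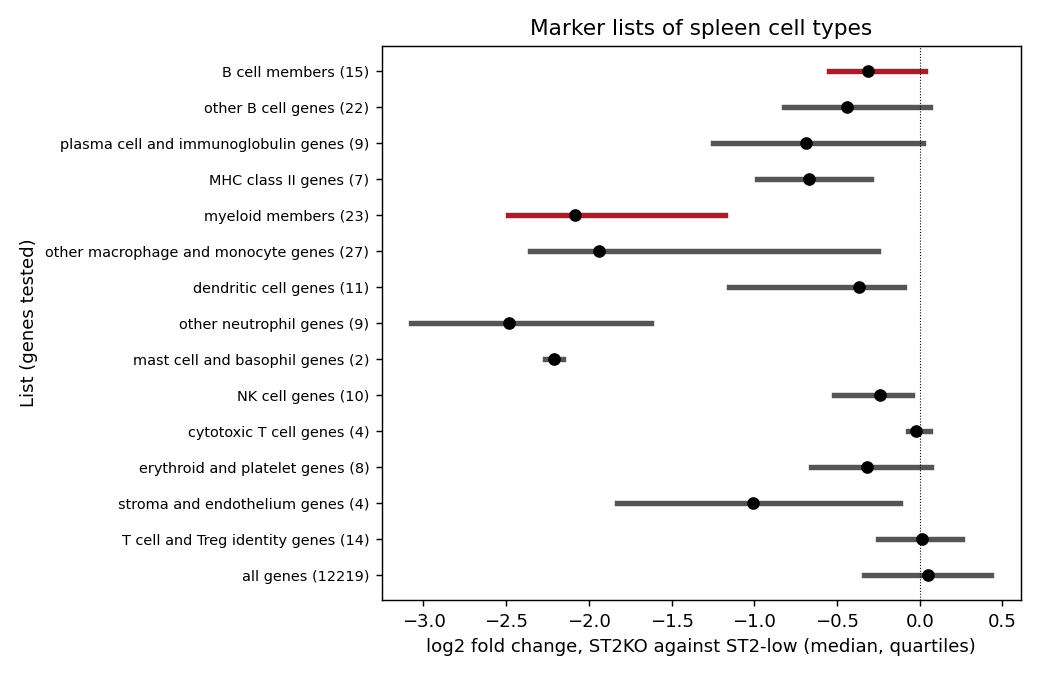
Median log2 fold change (point) and quartiles (bar) in ST2KO against ST2-low for each marker list, with the number of genes tested in brackets and all tested genes in the last line. The myeloid members and the other macrophage, neutrophil and mast cell lists lie near -2, and the cytotoxic T cell and T cell lists at -0.02 and 0.01.

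Counts for further cell types are likewise to be read against 29.3% of all genes lower and 33% higher. Of 9 tested other neutrophil genes, 6 were lower in ST2KO than in ST2-low and 2 higher, with a median log2 fold change of -2.48. The 2 higher, named after their values were seen, were Cxcr2 and Mmp9 (log2 fold change 1.70 and 0.43; edgeR adjusted p = 0.00681 and 0.0423). Cxcr2 was at 0.695, 0.818 and 1.06 CPM in ST2KO and 0.216, 0.331 and 0.201 CPM in ST2-low, on 4, 6 and 4 counts in ST2-low. Il1b, an inflammatory cytokine of myeloid cells, was at 0.63, 0.234 and 0.573 CPM in ST2KO, 8.09, 5.68 and 5.74 CPM in ST2-high and 9.19, 8.05 and 5.38 CPM in ST2-low. Of 7 genes of MHC class II, which B cells and dendritic cells share, 4 were lower and 3 did not pass, H2-Ab1 at 23.9, 20.1 and 29.1 CPM in ST2KO, 51.7, 47.8 and 47.3 CPM in ST2-high and 57.7, 36.1 and 49.5 CPM in ST2-low. Kit and Hdc, the 2 tested mast cell and basophil genes, were both lower. Of 11 tested dendritic cell genes 6 were lower and 2 higher, and of 9 tested plasma cell genes 5 were lower and 1 higher, lists that hold genes Tregs themselves use, such as Cd83, Id2, Xbp1 and Prdm1. Of 10 tested NK cell genes 1 was lower, of 4 tested cytotoxic T cell genes 0 passed by edgeR, at an unadjusted p or by DESeq2 or limma-voom, of 8 erythroid and platelet genes 3 were lower and of 4 tested stroma and endothelium genes 3 were lower. The 14 T cell and Treg identity genes had a median of 0.01. Their summed level was 6277, 6351 and 6176 CPM in ST2KO, below 8206, 8322 and 8546 CPM in ST2-high and 7520, 7676 and 7578 CPM in ST2-low. Genes of high level weigh most in this sum too. Ctla4 alone averaged 337 CPM per kilobase in ST2KO, 911 in ST2-high and 857 in ST2-low. Of the 14 genes, 6 were higher and 5 lower in ST2KO than in ST2-low, so the sum does not stand for the whole list. The NK cell sum was 49.58, 43.78 and 39.36 CPM in ST2KO, 45.16, 44.18 and 43.18 CPM in ST2-high and 55.06, 55.49 and 50.85 CPM in ST2-low. The summed level of cytotoxic T cell genes was 23.95, 22.33 and 20.79 CPM in ST2KO, 22.46, 20.0 and 20.57 CPM in ST2-high and 21.99, 22.34 and 22.81 CPM in ST2-low. Whether the share of cells other than Tregs differed between the groups was not tested.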

How the data were processed

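RNA of 9 samples of spleen Tregs was sequenced. The deposited files hold whole-number read counts per gene symbol, 1 file per sample, with no normalization as judged from the values. The aligner, genome build, annotation, counting tool, strand setting, library kit and sorting are not stated in the labels or headers, so reads of overlapping or antisense genes cannot be told apart. Each table has 23420 rows, of which 27 with date-like names (0.182% to 0.206% of counts) were left out. The ribosomal RNA precursor Rn45s held 12.1% to 16.9% of counts.

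Genes were filtered with edgeR 4.0.16 filterByExpr (minimum count 10, minimum total 15), which left 12219. Quasi-likelihood tests with TMM factors and 1 coefficient per group used all 9 samples, with p adjusted by Benjamini-Hochberg across these genes and a threshold of 0.05 (R 4.3.3). Alternatives were DESeq2 1.42.0, limma 3.58.1 voom, other scalings and filters, a replicate block and leaving out each library. The CPM values of 3 counts are 3 divided by the TMM-scaled size of each library. They are a floor set by depth and no estimate of error or of the variation between samples. The 95% intervals of log2 fold change came from the SE of the edgeR fit, which includes the variation between samples.

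Groups came from the genotype labels. The 38 members and the marker lists were chosen with earlier results of these data known. Text names all members and, from each other list, up to 3 genes of smallest adjusted p in ST2KO against ST2-low that averaged 1 CPM or more in any group. Of the 38 symbols, 3 were matched to the annotation through older symbols. Gene lengths were exon unions of GENCODE on GRCm38.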

Additional observations from a re-analysis of the deposited data

How the results depend on the processing

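No called result changed direction under any alternative run. With at least 5 CPM in 3 samples fewer members were tested, so the counts in that run are not out of 23. In it 11 myeloid genes were lower in ST2KO than in ST2-low and 11 than in ST2-high. Neither count can be read as a drop from the 21 of the main run, because fewer genes were tested. The share of all genes lower in that run is not given here. With only restricted members, the log2 ratio of the summed myeloid level was -2.06 for ST2KO over ST2-low, -1.75 for ST2KO over ST2-high and -0.32 for ST2-high over ST2-low. Leaving out each library in turn gave 20 to 21 myeloid genes lower in ST2KO than in ST2-low and 19 to 21 than in ST2-high, and 2 to 7 lower in ST2-high than in ST2-low. For B cell genes it gave 3 to 7 lower and 0 to 1 higher for ST2KO over ST2-low, 3 to 8 lower and 0 to 1 higher for ST2KO over ST2-high, and 0 to 2 lower and 0 to 1 higher for ST2-high over ST2-low. Over all genes it gave 3321 to 3900 lower and 3525 to 4061 higher for ST2KO over ST2-low. These counts were 3696 to 4178 and 3328 to 3893 for ST2KO over ST2-high, and 957 to 1398 and 1521 to 1913 for ST2-high over ST2-low. Among single members, 6 of the 28 called for ST2KO over ST2-low lost the call under at least 1 alternative, as did 7 of 28 for ST2KO over ST2-high and 7 of 9 for ST2-high over ST2-low. The cause was not tested. The samples share only a number: same-numbered samples of different groups had correlations of deviations between -0.0626 and 0.0984. With the replicate block, 21 myeloid and 6 B cell genes fell for ST2KO over ST2-low, 21 and 8 for ST2KO over ST2-high, and 8 and 0 for ST2-high over ST2-low. Without the block, 29.3%, 32.6% and 10.8% of all genes were lower in these comparisons. Depth limits the low members: Cd14, C1qc, Clec7a, Siglech, Flt3, Csf3r, S100a8 and S100a9 had 10 counts or fewer in at least 1 ST2KO library.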
